A study of Mus musculus with 10 samples.

Results

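The Hox genes encode homeodomain transcription factors that give cells a position along the body axis. They lie in 4 clusters, Hoxa, Hoxb, Hoxc and Hoxd, and within a cluster the gene number runs in the order of the genes along the chromosome: low numbers act towards the head (anterior) and high numbers towards the tail (posterior). Fibroblasts and other mesenchymal cells of the adult keep a Hox pattern that reflects where they came from, Polycomb proteins hold unused clusters silent, and mutations of the paralogs Hoxa9, Hoxb9 and Hoxd9 together impair the mammary gland of the mouse.

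All genes with a probe set of a single symbol made of Hoxa, Hoxb, Hoxc or Hoxd and a number were taken, which gave 33 of 18193 genes and 48 probe sets: 9 Hoxa, 9 Hoxb, 7 Hoxc and 8 Hoxd genes. The 4 mesenchymal lines, called M1 to M4, were each grown from a mammary tumour that relapsed in a female FVB/N mouse injected with E cells. The epithelial line E came from a mammary adenocarcinoma of a female FVB/N-TgN(MMTVneu)202Mul mouse, which carries the neu oncogene under the mammary tumour virus promoter, so the E cells that were injected carry this transgene; whether the M lines still express it was not analysed here. Each line was measured on 2 arrays after growth in RPMI medium with 10% FBS to 80% confluence. Each M line stands for 1 relapsed tumour and E for 1 line, and the labels do not say whether a line is a clone, whether it holds host cells or whether its arrays came from separate cultures. The p-values therefore cover no more than array-to-array spread within a line, and that spread may be technical.

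Across probe sets, correlations were 0.992 to 0.993 within a line and 0.873 to 0.976 between lines. The deposited scale differed between arrays, with trimmed mean signals of 180.7 to 271.7 on the M arrays and of 299 and 264 on the E arrays. The median gene had a log2 change of -0.205 between the average M line (the mean of the 4 line means) and E, and one of 0.0423 after quantile normalization. The epithelial state of E and the mesenchymal state of the M lines were checked with markers. In the mean of the M lines all 11 tested mammary epithelial markers fell and 10 of 11 stromal fibroblast markers rose. Over all tested genes 14.3% fell and 7.30% rose. In each of the 4 lines 10 epithelial markers fell and 8 fibroblast markers rose (8.89% and 4.21% of all tested genes). The epithelial marker Krt8 was called lower in M1 alone.

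Of the 33 Hox genes, 24 had a probe set above the 40th percentile of its array (14.1 to 21.3) on at least 2 arrays and were tested among 14840 genes: 9 Hoxa, 8 Hoxb, 4 Hoxc and 3 Hoxd genes. The other 9, Hoxb1, Hoxc8, Hoxc10, Hoxc13, Hoxd1, Hoxd3, Hoxd10, Hoxd11 and Hoxd12, were dim throughout. A gene could pass on the arrays of a single line, so genes bright in the M lines or in E alone were kept. Changes below are log2 differences of the signal plus a pseudocount of 32, which compresses changes of signals near or under 32. A gene was called, and is said to have risen or fallen, at an adjusted p under 0.05 over all 14840 genes (limma) with a change of at least 2-fold.

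The first comparison asked how the Hox genes of the relapsed mesenchymal lines differed from those of the epithelial line. In the M lines Hoxa2, Hoxa3 and Hoxa5 were lower and the higher-numbered Hoxa9 and Hoxa10, the Hoxb genes 2 to 6 and Hoxc6 and Hoxc9 were higher. Hoxa9 rose by 2.98 ± 0.13 (SE) and Hoxb3, Hoxc9 and Hoxb2 by at least 2.30, while Hoxa5 fell by 2.52 ± 0.14. In all, 9 Hox genes rose, 3 fell and 12 of the 24 tested were not called. Over all tested genes 7.30% rose and 14.3% fell. After quantile normalization 10 Hox genes rose and 2 fell (9.56% and 8.69% of all tested genes), with Hoxa3 lost and Hoxb9 gained. The median change of the 24 was 0.52, against -0.205 for all genes tested; with the 9 dim genes included, the median over the 33 was 0.17. Each of the 24 changes is plotted with its error.

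**Figure D1:**
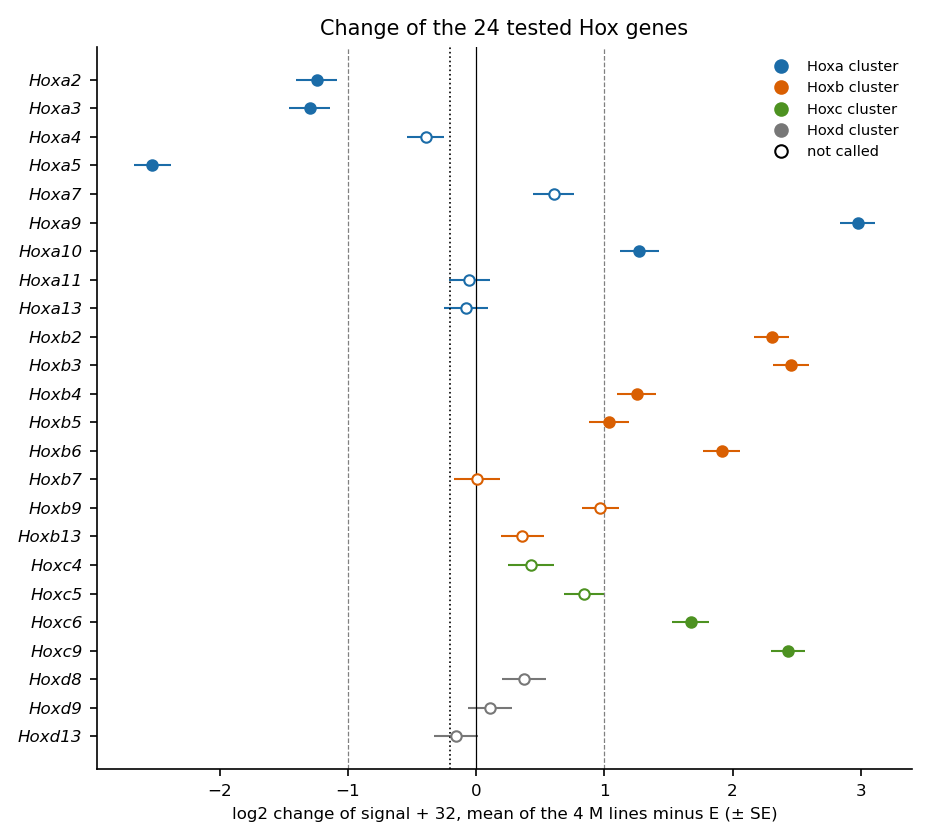
Log2 change (signal + 32) of the 24 tested Hox genes in the average M line minus E, with the SE from limma. Filled points are called, dashed lines mark a 2-fold change and the dotted line the median of all tested genes (-0.205); Hoxa2, Hoxa3 and Hoxa5 lie to the left and the called Hoxb and Hoxc genes to the right.

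Falls were called in 1 cluster and rises in 3 (7.30% of all tested genes rose and 14.3% fell). In Hoxa, 2 of 9 tested genes rose and 3 fell, with a median of -0.08. Of 8 Hoxb genes 5 rose and none fell, with a median of 1.15, and every tested Hoxb change lay above 0. Hoxc had 2 of 4 tested genes higher and none lower, with a median of 1.26, and the lowest of its changes was 0.43. None of the 3 tested Hoxd genes was called (Hoxd8 0.37, Hoxd9 0.11 and Hoxd13 -0.16), and no Hoxd probe set exceeded a signal of 30.9 on an M array or 19.9 on an E array. By paralog number, 3 of 7 tested anterior genes (numbers 1 to 4) rose and 2 fell, 3 of 8 central genes (5 to 8) rose and 1 fell, and 3 of 9 posterior genes (9 to 13) rose and none fell. Over all members of a cluster, tested or dim, the mean change was -0.08 in Hoxa, 1.16 in Hoxb, 0.75 in Hoxc and 0.04 in Hoxd. The medians over the same members were -0.08 in Hoxa, 1.04 in Hoxb, 0.43 in Hoxc and 0.05 in Hoxd. That of Hoxc thus lay well under the 1.26 of its tested genes. Of the dim Hoxc genes, Hoxc8 (-0.12) and Hoxc13 (-0.30) lay below 0 and Hoxc10 (0.33) above it.

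The promoters of 4 called genes with a RefSeq start in GRCm38.p6 are given to set Hoxa2 and Hoxa5 next to Hoxa9, with Hoxb4 from the Hoxb cluster. Each runs from 250 bases before the start to 50 after it, 5′ to 3′ on the gene's strand, with CG dinucleotides in capitals. Hoxa2 and Hoxa5 fell, Hoxa9 and Hoxb4 rose.
Hoxa2 (chr6:52164782-52165081, minus strand): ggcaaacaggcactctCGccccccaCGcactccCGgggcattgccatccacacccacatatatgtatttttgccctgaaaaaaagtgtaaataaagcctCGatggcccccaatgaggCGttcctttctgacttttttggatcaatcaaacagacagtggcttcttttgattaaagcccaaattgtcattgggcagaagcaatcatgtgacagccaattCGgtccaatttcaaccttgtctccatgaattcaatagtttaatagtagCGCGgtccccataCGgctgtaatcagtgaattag
Hoxa5 (chr6:52204538-52204837, minus strand): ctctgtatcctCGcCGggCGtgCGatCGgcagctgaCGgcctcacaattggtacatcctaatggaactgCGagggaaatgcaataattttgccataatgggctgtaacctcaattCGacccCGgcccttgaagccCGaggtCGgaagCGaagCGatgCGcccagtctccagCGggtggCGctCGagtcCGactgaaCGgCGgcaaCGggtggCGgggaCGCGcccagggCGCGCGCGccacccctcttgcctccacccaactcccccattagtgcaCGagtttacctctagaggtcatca
Hoxa9 (chr6:52227321-52227620, minus strand): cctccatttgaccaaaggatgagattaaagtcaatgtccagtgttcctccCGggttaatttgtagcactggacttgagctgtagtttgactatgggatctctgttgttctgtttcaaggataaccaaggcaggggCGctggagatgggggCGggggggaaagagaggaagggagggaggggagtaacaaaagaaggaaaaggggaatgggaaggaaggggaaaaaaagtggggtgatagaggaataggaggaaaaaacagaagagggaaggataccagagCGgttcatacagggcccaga
Hoxb4 (chr11:96318017-96318316, plus strand): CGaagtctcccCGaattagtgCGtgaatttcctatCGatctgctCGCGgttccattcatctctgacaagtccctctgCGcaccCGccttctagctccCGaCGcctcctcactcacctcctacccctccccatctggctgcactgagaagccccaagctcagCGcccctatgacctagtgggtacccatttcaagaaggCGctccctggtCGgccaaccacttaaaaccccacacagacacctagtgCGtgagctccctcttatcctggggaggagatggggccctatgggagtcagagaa
The Hoxa5 promoter held 29 CG dinucleotides, more than 87.1% of 32841 promoters of this length, Hoxb4 held 14, Hoxa2 held 9 and Hoxa9 held 4, and the median promoter held 7. Of the called genes not printed, Hoxa3, which fell, held 20, and the windows of Hoxa10, which rose, held 21 and 12. Hoxa7, which rose in M1 alone, held 9. The number of CG thus did not separate the genes that fell from those that rose. The letters TGATNNAT, a site shared by HOX proteins and their PBX partners, were searched on both strands, as were the other motifs. They occurred once in the Hoxa2 window, apart from its CCAAT matches, and not in the other 3, and 8.85% of all promoters hold them. CCAAT occurred 4 times in Hoxa2, once in Hoxa5 and not in Hoxa9 or Hoxb4 (37.4% of promoters), and CAGGTG, an E-box read by SNAI and ZEB repressors, in none of the 4 (20.2% of promoters). RefSeq windows were matched for 19 of the 33 genes and for 7 of the 16 that were called in at least 1 line.

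The genes that fell all came from the low-numbered side of Hoxa. Hoxa5, studied in human breast cancer as an activator of the p53 gene, had signals of 229 and 282 in M1, 158 and 87.6 in M2, 139 and 145 in M3 and 159 and 204 in M4, against 1169 and 1068 in E. All 8 M arrays lay far below both E arrays, and the changes of the 4 lines ran from -2.93 in M2 to -2.005 in M1. In the mean of the M lines Hoxa5 fell by 2.52 ± 0.14 (adjusted p = 1.42e-21, limma). Its other probe set fell too, by 1.58 ± 0.15 (limma, adjusted p = 2.2e-10 over the 32978 probe sets that passed the filter), with signals of 119.7 to 161 in the M lines against 636 and 385 in E. Hoxa5 was thus reduced in the M lines but not lost, its lowest M signal being 87.6.

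Hoxa3, needed for the thymus and parathyroid, had signals of 34.9 and 47.2 in M1, 33.4 and 25.2 in M2, 24.5 and 16 in M3 and 21.9 and 26.5 in M4, against 162 and 80.3 in E. The M and E arrays did not overlap, but the E arrays lay far apart. Its change of -1.297 ± 0.16 (adjusted p = 9.24e-10, limma) rested on E replicate 1, since without that array the change was -0.90 and the gene was not called; after quantile normalization it was -0.99, also without a call. A second of its 4 probe sets, with signals of 10.6 to 28.0 in the M lines against 269 and 213 in E, fell by 2.50, and the remaining 2 were not called. Hoxa2, which patterns the second pharyngeal arch and the hindbrain, had signals of 14.4 and 12.0 in M1, 8.4 and 8.8 in M2, 11.6 and 6.9 in M3 and 0.7 and 6.9 in M4, against 63.1 and 64.7 in E. It fell by 1.24 ± 0.16 (adjusted p = 3.06e-09, limma), and every M array lay far below both E arrays and under the pseudocount of 32.

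Hoxa4, between these genes, was not called in any line. Its signals were 72.8 and 79.0 in M1, 48.0 and 47.0 in M2, 30.5 and 24.8 in M3 and 41.0 and 40.6 in M4, against 68.3 and 73.0 in E. M1 lay level with E and the other lines below it, and the changes against E ran from -0.78 in M3 to 0.07 in M1.

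On the other side of the cluster, Hoxa9, a factor that cooperates with Meis1 in leukaemia, had signals of 264 and 255 in M1, 368 and 303 in M2, 202 and 195 in M3 and 173 and 215 in M4, against 2.8 and 2.5 in E. All 8 M arrays were bright and both E arrays lay under the 40th percentile of their array. Hoxa9 rose by 2.98 ± 0.13 (adjusted p = 1.07e-25, limma), between 2.70 and 3.40 in the 4 lines, and its second probe set rose by 1.16 ± 0.14. Hoxa10, best known for its role in the uterus, had signals of 22.5 and 32.5 in M1, 111 and 94.6 in M2, 47.5 and 86.0 in M3 and 74.5 and 84.8 in M4, against 5.4 and 10.6 in E. It rose by 1.27 ± 0.15 (adjusted p = 3.07e-10, limma), and M1 was the lowest of the M lines. The adjusted p of Hoxa10 on 5 line means was 0.124, and its other probe set was dim. Hoxa11 and Hoxa13, limb and urogenital genes at the far end, had signals of at most 25.6 in the M lines and at most 23.0 in E and were not called.

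**Figure D2:**
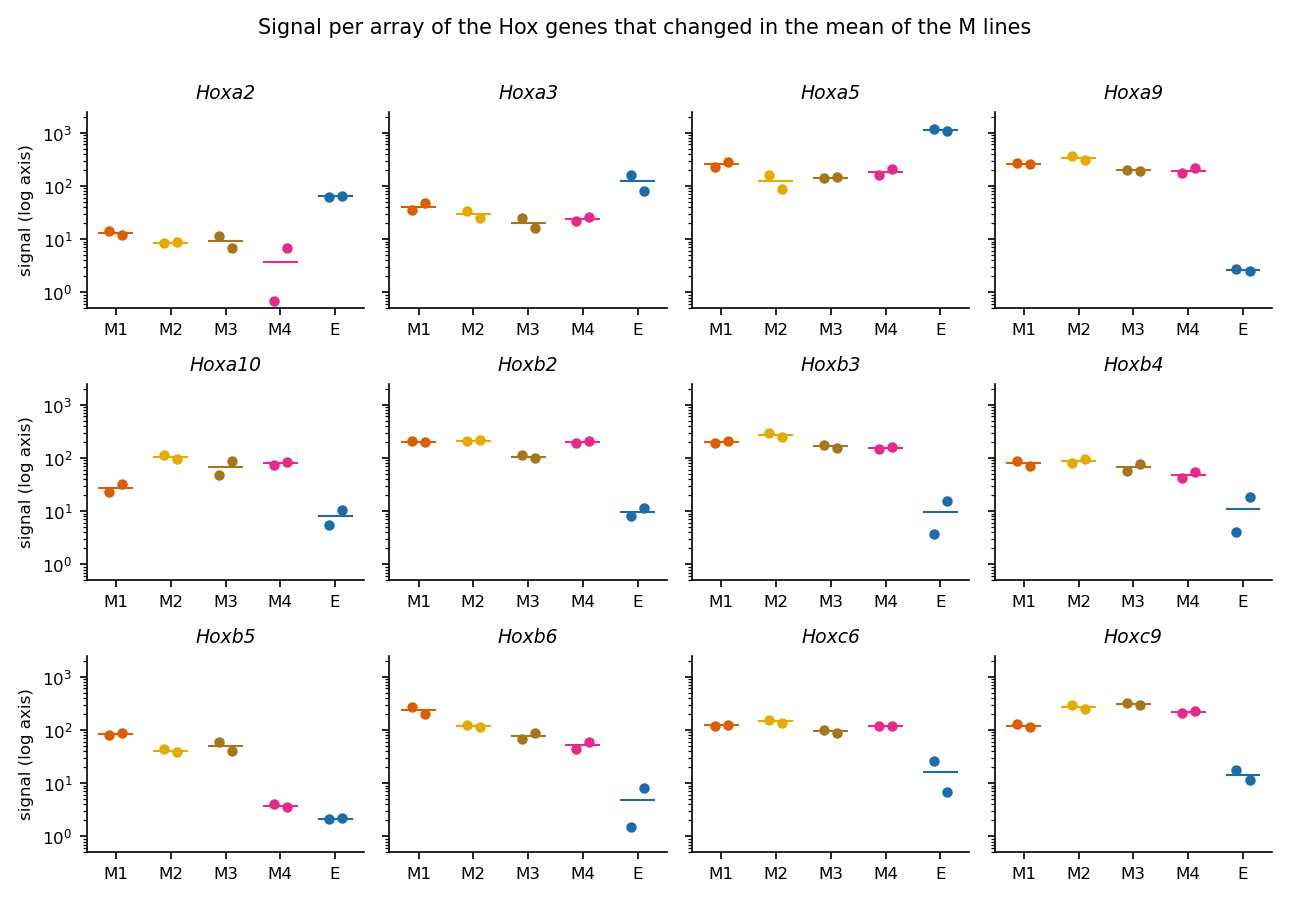
Signal of each array (points, log axis) and the mean of the 2 arrays (horizontal lines) in M1, M2, M3, M4 and E for the 12 Hox genes called in the average M line. Hoxa2, Hoxa3 and Hoxa5 are highest in E, and the other 9 have all 8 M arrays above both E arrays, with Hoxb5 in M4 (4.0 and 3.6) the closest to E (2.1 and 2.2).

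In the Hoxb cluster, the block of genes 2 to 6 rose. Hoxb2, a hindbrain segment gene, had signals of 208 and 199 in M1, 205 and 213 in M2, 112 and 99.6 in M3 and 192 and 210 in M4, against 8.0 and 11.7 in E. It rose by 2.30 ± 0.13 (adjusted p = 3.29e-21, limma), with M3 lowest of the M lines. Hoxb3, a neighbour with hindbrain and pharyngeal roles, had signals of 191 and 209 in M1, 297 and 243 in M2, 174 and 157 in M3 and 145 and 164 in M4, against 3.7 and 15.2 in E. It rose by 2.45 ± 0.14 (adjusted p = 1.07e-21, limma), and its second probe set changed by 0.94 without a call.

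Hoxb4, which expands blood stem cells when overexpressed, had signals of 88.2 and 71.7 in M1, 81.8 and 96.7 in M2, 56.9 and 76.2 in M3 and 41.3 and 55.3 in M4, against 4.1 and 18.2 in E. All 8 M arrays were above both E arrays. Hoxb4 rose by 1.25 ± 0.15 (adjusted p = 3.37e-10, limma). It was called in M1, M2 and M3, and its change in M4 was 0.91 (1.13 and called after quantile normalization). A second probe set changed by 0.81 without a call. Hoxb6, a gene of the trunk and lateral mesoderm, had signals of 266 and 201 in M1, 122 and 115 in M2, 68.3 and 87.5 in M3 and 44.3 and 60.2 in M4, against 1.5 and 8.0 in E. All 8 M arrays were above E, with M1 highest and M4 lowest. Hoxb6 rose by 1.92 ± 0.14 (adjusted p = 8.21e-17, limma; 0.0926 on 5 line means).

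Hoxb5, a gene of gut neurons and vessels, had signals of 79.1 and 86.6 in M1, 44.0 and 37.8 in M2, 58.4 and 40 in M3 and 4.0 and 3.6 in M4, against 2.1 and 2.2 in E. M4 lay close to E and the other 3 lines well above it. The mean change of 1.04 ± 0.15 (adjusted p = 6.73e-08, limma) was just past the 2-fold limit, was 0.997 without M3 replicate 1, and its adjusted p was 0.308 when 5 line means were fitted. Hoxb7 had signals of at most 17.2 in the M lines and at most 15.7 in E and a change of 0.01 ± 0.18.

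Hoxc6, a gene of the thoracic level of the trunk, had signals of 121 and 123 in M1, 155 and 137 in M2, 99.9 and 87.0 in M3 and 121 and 120 in M4, against 26.1 and 6.7 in E. The M lines lay close together and all above E. Hoxc6 rose by 1.67 ± 0.14 (adjusted p = 9.05e-15, limma); of its other probe sets, 1 rose by 1.34 and 1 changed by 0.05. Hoxc9, an organiser of thoracic identity in the spinal cord, had signals of 129 and 113 in M1, 298 and 247 in M2, 317 and 288 in M3 and 212 and 226 in M4, against 17.5 and 11.3 in E. It rose by 2.43 ± 0.13 (adjusted p = 4.85e-22, limma), and M1 was lowest of the M lines. Hoxc5 changed by 0.84 and Hoxc4 by 0.43 in the mean of the M lines, and neither was called there. Without E replicate 2 the Hoxc5 change was 1.05 and called, and Hoxb9, at 0.97, was called without E replicate 1 (1.04).

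All 8 M arrays lay above both E arrays for 10 of the 24 tested genes (10.7% of all tested genes) and below them for 3 (30.9%). The 10 were the 9 that rose and Hoxc5. None of these 10 had both E arrays above the 40th percentile, so they passed the filter through M arrays, and Hoxa2 passed through E arrays alone. The separation thus depends in part on the filter and is no separate support for the calls. The fit to 5 line means, which treats each line as 1 value, called 6 of the 9 rises and all 3 falls. The rises it did not call were Hoxa10, Hoxb5 and Hoxb6. The share of all tested genes called by this fit is not given here, so its count is not read as particular to Hox genes. With the larger pseudocount tried, or with values below 64 set to 64, the genes still called in the average M line were Hoxa5, Hoxa9, Hoxb2, Hoxb3 and Hoxc9, and the other 7 were under 2-fold.

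Line by line, M1 had 11 Hox genes higher than E and 3 lower (8.56% and 12.4% of all tested genes), M2 had 10 and 3 (8.53% and 11.7%), M3 had 11 and 3 (7.67% and 19.7%) and M4 had 7 and 3 (6.60% and 20.0%). The 3 that fell were Hoxa2, Hoxa3 and Hoxa5 in every line (8.89% of all tested genes fell in each of the 4), but after quantile normalization the calls of Hoxa2 in M1 (-0.88) and M3 (-0.96) and of Hoxa3 in M1 (-0.75) were lost. A total of 6 genes rose in all 4 lines, Hoxa9, Hoxb2, Hoxb3, Hoxb6, Hoxc6 and Hoxc9 (4.21% of all tested genes). Other probe sets of these genes were not called in every line. The second of Hoxa9 missed the limit in M1 (0.97), and that of Hoxb3 was called in M2 and M4 alone. For Hoxc6, 1 missed the limit in M3 (0.96) and 1 was called in no line. Besides Hoxb9 and Hoxc5 in M3, described with the line differences, the calls lost without 1 array were those of Hoxa3 in M1 (-0.63 without E replicate 1, -0.90 without M1 replicate 1), in M2 (-0.88 without E replicate 1) and in M4 (-0.9999 without E replicate 1), of Hoxa10 in M3 (0.994 without M3 replicate 2) and of Hoxb4 in M3 (0.97 without E replicate 1). Hoxb4 in M4 passed the 2-fold limit without E replicate 2 (1.15) or M4 replicate 1 (1.04). Quantile normalization (1.13) and scaling to the hybridization controls (1.14) also called Hoxb4 in M4. Because the 4 comparisons share the E arrays, they are not independent of each other.

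**Figure D3:**
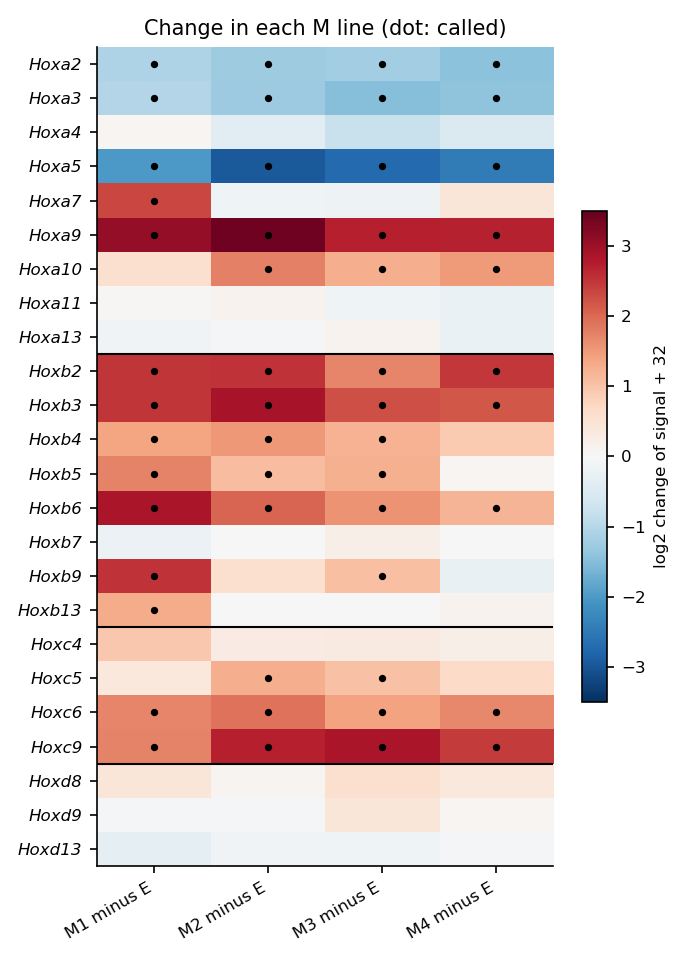
Log2 change (signal + 32) of the 24 tested Hox genes in each M line minus E, in cluster order with lines between the clusters; dots mark calls. Hoxa2, Hoxa3 and Hoxa5 are blue in all 4 columns, 6 genes are red with a dot in all 4, and Hoxa7, Hoxb9 and Hoxb13 are red mainly in M1.

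The second comparison asked where the M lines differed from each other. By the moderated F test 7 of the 24 tested Hox genes differed among the M lines by at least 2-fold between the highest and lowest line (22.2% of all tested genes did): Hoxa7, Hoxa10, Hoxb5, Hoxb6, Hoxb9, Hoxb13 and Hoxc9. Hoxa5, whose M line means spanned 0.92, passed as well without M1 replicate 1 (1.06) or M2 replicate 1 (1.26). Hoxb9, a rib and thoracic gene, had signals of 237 and 198 in M1, 32.5 and 31.5 in M2, 58.7 and 55.2 in M3 and 2.8 and 4.4 in M4, against 13.2 and 8.9 in E. The M1, M2 and M3 arrays lay above E, and both M4 and E lay under the 40th percentile of their arrays. Its M line means spanned 2.80 on the log2 scale (F adjusted p = 2.46e-17, limma), M1 was 2.08 ± 0.15 above the other M lines and the difference of M4 from them was -1.66 ± 0.15. Against E it rose by 2.53 in M1 and by 1.05 in M3, the second lost without E replicate 2 (0.98).

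Hoxa7, a trunk gene that sits between the Hoxa genes that fell and those that rose, had signals of 147 and 213 in M1, 5.5 and 4.4 in M2, 4.5 and 3.9 in M3 and 23.8 and 21.9 in M4, against 11.0 and 7.4 in E. It stood out in M1, by 2.35 ± 0.20 against E and by 2.32 ± 0.16 against the other M lines (adjusted p = 6.03e-17, limma). It was also called lower in M2 and in M3 than in the other M lines, with changes of -1.02 in M2 and -1.05 in M3, and both contrasts contain the high M1 arrays. Both of those calls were lost without M1 replicate 2, and the M2 call also without M2 replicate 2. Hoxb13, a gene of the tail end of the axis and of the prostate, had signals of 51.0 and 50.2 in M1 and at most 7.6 in M2, M3 and M4, against 1.6 and 1.5 in E. Hoxb13 was thus clear of the other lines in M1 alone, with a change of 1.3 ± 0.21 against E, and with values below 64 set to 64 its change was 0.

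M1 also led Hoxb6, which was 1.24 ± 0.15 above the other M lines, so 4 genes were called higher in M1 (3.63% of all tested genes) and none lower (1.69%). At an unadjusted p under 0.05 without the fold limit (limma), Hoxa10 (-0.93), Hoxc5 (-0.62) and Hoxc9 (-0.94) also had lower values in M1, and Hoxa3 (0.37), Hoxa4 (0.62), Hoxa5 (0.69), Hoxb5 (0.95) and Hoxc4 (0.68) higher ones. After quantile normalization Hoxa10 and Hoxc9 were also called lower in M1 (-1.04 and -1.13). M4 was below the other M lines in Hoxb5 (-1.29 ± 0.16) and in Hoxb9 (3.99% of all tested genes were lower). M2 and M3 each had 1 call, Hoxa7, which was lower (0.526% lower and 1.92% higher in M2, 4.68% lower and 1.90% higher in M3). Genes past the relaxed limit used for M1 were also found in these lines. Among them were Hoxa10 (0.64) and Hoxa5 (-0.54) in M2, Hoxc9 (0.56) and Hoxb2 (-0.78) in M3 and Hoxb6 (-0.96) in M4. Such smaller differences were therefore not particular to M1. Hoxc5, next to Hoxc6, had signals of 18.4 and 20.8 in M1, 70.9 and 58.5 in M2, 50.1 and 47.6 in M3 and 25.7 and 37.4 in M4, against 2.4 and 13.8 in E. It was called against E in M2 (1.28) and M3 (1.03) and not in M1 (0.38) or M4 (0.67). Both calls were lost with the mean of probe sets (0.96 in M2 and 0.74 in M3), and the M3 call also without E replicate 1 (0.82). The order of the lines for Hoxb6, M1, M2, M3 and M4 from high to low, held between M1 and each other line beyond the spread of the arrays, and the arrays of M3 and M4 lay apart by less than the gap within M3.

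**Figure D4:**
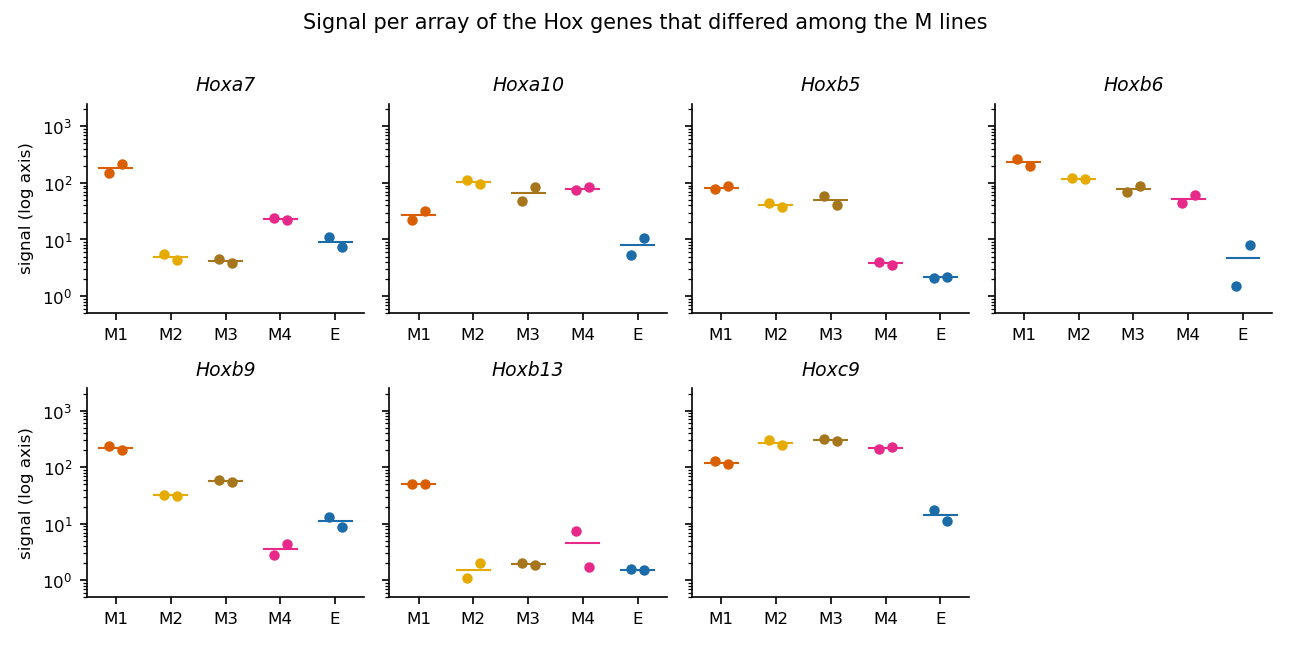
Signal of each array (points, log axis) and the mean of the 2 arrays (horizontal lines) in M1, M2, M3, M4 and E for the 7 Hox genes that differed among the M lines by the F test. Hoxa7, Hoxb9 and Hoxb13 are highest in M1, and of the M lines Hoxb5 and Hoxb9 are lowest in M4 and Hoxa10 and Hoxc9 lowest in M1.

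HOX proteins bind DNA with PBX, MEIS and PKNOX partners. Of 8 tested cofactor genes Meis2 (2.02 ± 0.14) and Meis1 (1.24 ± 0.15) rose, Pbx3 fell by 1.68 ± 0.13 and 5 were not called (7.30% of all tested genes rose and 14.3% fell). On 5 line means the adjusted p was 0.0341 for Meis2, 0.0771 for Meis1 and 0.0735 for Pbx3 (limma). Meis1 had signals of 21.7 to 94.0 on the M arrays, against 3.1 and 2.0 in E. Meis2 had signals of 148 to 393 on the M arrays, against 45.7 and 35.1 in E. Both were higher on every M array, and Pbx3, with 95.2 to 299 on the M arrays against 715 and 587 in E, was lower on every one.

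Polycomb and trithorax proteins keep Hox clusters off or on. Of 26 tested Polycomb genes none rose and 5 fell, against 14.3% of all tested genes. They were Asxl1 (-1.67 ± 0.13), the methyltransferase gene Ezh2 (-1.55 ± 0.12), Bmi1 (-1.32 ± 0.11), Phc1 (-1.15 ± 0.14) and Suz12 (-1.15 ± 0.12), whose protein works in a complex with EZH2; Phc1 and Suz12 missed the 2-fold limit after quantile normalization (-0.75 and -0.79), and Suz12 was named after its value was seen. On 5 line means Asxl1 had an adjusted p of 0.0222, and the other 4 missed the threshold (0.0509 for Bmi1, 0.0761 for Phc1, 0.149 for Suz12 and 0.212 for Ezh2, limma). The list's median was -0.51, against -0.205 for all genes. Only 2 of the list, Asxl1 and Bmi1, were called lower in each of the 4 M lines (8.89% of all tested genes were). Ezh2 was under 2-fold in M1 (-0.595), Suz12 in M1 (-0.776) and M2 (-0.888) and Phc1 in M1 (-0.884). Ezh2 had signals of 351 to 1438 on the M arrays, with M3 lowest, against 2267 and 1995 in E. Of 13 tested trithorax and demethylase genes 2 fell, Wdr5 (-1.62) and Kmt2c (-1.34, not called after quantile normalization), and none rose (14.3% of all tested genes fell). For Wdr5 the fit to 5 line means gave 0.0516 as the adjusted p (limma).

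Genes that flank the clusters were mostly not called in the average M line. Of 23 tested, 1 rose, 2 fell and 20 were not called (7.30% of all tested genes rose and 14.3% fell). Skap2, an adaptor gene that flanks the Hoxa cluster, had signals of 535 to 949 on the M arrays, against 3607 and 3381 in E, and fell by 2.32 ± 0.12. Snx10, a sorting nexin gene, rose by 1.84 ± 0.13 (adjusted p = 0.0875 on 5 line means, limma), and Jazf1 fell by 1.71 ± 0.17, so the called flanking genes did not all move one way. No tested flanking gene of the Hoxb, Hoxc or Hoxd cluster was called in the average M line under the deposited scaling. The F test across the M lines did call Nfe2l1, Smug1 and Cbx5 among them, which were named after their values were seen. Lnpk beside Hoxd was called higher in the average M line after quantile normalization (1.36) and was named for that after its value was seen.

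Among 35 tested homeobox genes outside the Hox clusters, 6 rose, 6 fell and 23 were not called (7.30% of all tested genes rose and 14.3% fell). After quantile normalization 5 fell, without Six4 (-0.75), which was named after its value was seen. Prrx2 (5.13 ± 0.13) and Prrx1 (4.55 ± 0.13), homeobox genes of connective tissue, led those that rose, followed by Msx2 (1.49) and Msx1 (1.35), whose adjusted p on 5 line means was 0.214 for Msx2 and 0.161 for Msx1 (limma). Those that fell most were Irx3 (-3.86 ± 0.13), Irx5 (-2.33 ± 0.13), Barx2 (-2.05) and Irx2 (-1.62).

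In the mean of the M lines fibroblast and epithelial markers changed as well, while most leukocyte and all endothelial markers tested were not called. The summed signal of 11 tested stromal fibroblast markers was 11430 to 32160 on the M arrays and 355 to 508 on the E arrays. Of these 11 markers 10 rose (7.30% of all tested genes rose), and none was at 0. Those that rose most were Dcn (7.32), Col3a1 (4.48), Pdgfrb (4.38) and Pdgfra (4.37), and the rise of Lum came from M4 alone (4.80, with changes of -0.25 to -0.07 in the other lines). That of 11 mammary epithelial markers was 812.5 to 9140 on the M arrays and 57610 to 60890 on the E arrays. Those that fell most were Cldn3 (-7.54), Cldn7 (-7.35), Krt18 (-7.33) and Krt7 (-7.28). The keratin gene Krt8 made up most of the sum in M2, M3 and M4 and was called lower in M1 alone (-6.49), with changes of -0.01 in M2, -0.52 in M3 and -0.80 in M4. Lum and Krt8 were named after their values were seen. The part of either in the Hox changes was not tested, and in such bulk cultures fewer cells of a type and less RNA per cell cannot be told apart. Of 13 leukocyte markers 2 rose (7.30% of all tested genes did), the integrin gene Itgb2 (2.46 ± 0.14) and the actin regulator gene Coro1a (1.37 ± 0.15). Itgb2 had signals of 72.8 to 345 on the M arrays against 3.2 and 1.8 in E, and Coro1a had 23.9 to 89.8 against 3.8 and 2.4. Their part in the Hox changes was not tested. Ptprc, which defines leukocytes, had signals of 4.0 to 17.6 on the M arrays against 1.4 and 11.5 in E. None of 8 endothelial markers was called by limma in the mean of the M lines (7.30% of all tested genes rose and 14.3% fell). Plvap, named after its values were seen, changed by more than 2-fold against E in M1 (-1.18) and M4 (-1.24).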

How the data were processed

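Total RNA of the lines M1, M2, M3, M4 and E was labelled with biotin and hybridised to 10 Affymetrix mouse arrays, 2 for each line. The deposited values are probe set signals, intensity values on a linear scale made by the authors with GCOS 1.3, per the submitters' processing notes; no source used here gives the scaling target, and the arrays were used at their deposited scale. Their number limits the precision. Of 45101 probe sets 34945 carry 1 symbol, 932 several and 9160 none in the platform annotation, and only the first kind was named.

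Probe sets above the 40th percentile of their array on at least 2 arrays were kept, log2(signal + 32) was taken, and the kept probe set with the highest mean stood for its gene. One model with a mean per line was fitted to 14840 genes with limma 3.58.1 in R 4.3.3 (lmFit, eBayes with a trend). P-values were adjusted by Benjamini-Hochberg over all genes, and a call needs an adjusted p under 0.05 and a 2-fold change. The F test across the M lines needs the same with 2-fold between highest and lowest line. The script was tested on simulated data.

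The Hox genes, the gene lists and the tests were chosen with earlier results of these data known. Full values are given for Hox genes called in at least 1 contrast or with a line mean above a signal of 100, and from each list up to 4 called genes per direction by size are named. Alternatives were pseudocounts of 8 and 128, values below 64 set to 64, quantile normalization, scaling to 9 hybridization controls, no filter, the mean of probe sets, a replicate block, a fit to 5 line means and each array left out. Promoter windows are those of RefSeq on GRCm38.p6.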

Additional observations from a re-analysis of the deposited data

Results flagged for a closer look

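The 7 Hox genes that differed among the M lines were singled out because the difference itself passed the F test (limma), as it did for 22.2% of all tested genes. The gap between the highest and the lowest M line mean on the log2 scale was 2.80 for Hoxb9 (M1 highest, M4 lowest), 2.53 for Hoxa7 (M1 highest, M3 lowest), 1.68 for Hoxb5 (M1 highest, M4 lowest), 1.65 for Hoxb6 (M1 highest, M4 lowest), 1.3 for Hoxb13 (M1 highest, M2 lowest), 1.18 for Hoxa10 (M2 highest, M1 lowest) and 1.13 for Hoxc9 (M3 highest, M1 lowest).

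A probe set that the annotation gives to both Hoxb8 and Hoxb7 belongs to no single gene and entered no comparison above. It had signals of 93.0 and 121 in M1, 54.5 and 52.9 in M2, 50 and 40.3 in M3 and 28.2 and 24.9 in M4, against 22.1 and 3.1 in E. All 8 M arrays lay above both E arrays, with M1 highest and M4 lowest. Its change in the mean of the M lines was 0.972 ± 0.154, short of 2-fold (adjusted p = 3.2e-06, limma). It was called higher in M1 (1.67), not in M2 (0.98), M3 (0.82) or M4 (0.43), and the F test called the gap of 1.24 across the M lines (adjusted p = 3.99e-05, limma).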

How the results depend on the processing

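Low signals limit these results most, since many Hox signals lie near the pseudocount. With the larger pseudocount, and with values below 64 set to 64, the 12 Hox genes called in the average M line became 5 and 5 (4 and 4 higher, 1 and 1 lower), the 14 in M1 became 7 and 7, the 13 in M2 5 and 6, the 14 in M3 4 and 4 and the 10 in M4 5 and 5. Against the other M lines, the 4 calls of M1 became 2 with the larger pseudocount and 8 with the smaller one, the 1 of M2 became 0 and 0, the 1 of M3 0 and 0, the 2 of M4 0 and 1, and the 7 of the F test 2 and 4. The larger pseudocount and the floor compress low signals of every gene by construction. The share of all tested genes called under them is not given here, so these drops are not read as particular to Hox genes. The smaller pseudocount gave 14 calls in the average M line, 16 in M1, 14 in M2, 16 in M3, 12 in M4 and 10 by the F test.

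Leaving out each array in turn gave 11 to 13 calls in the mean of the M lines (8 to 10 higher, 2 to 3 lower), 13 to 14 in M1, 12 to 13 in M2, 12 to 14 in M3, 9 to 11 in M4 and 7 to 8 by the F test. Against the other M lines it gave 4 to 6 for M1, 0 to 1 for M2, 0 to 1 for M3 and 2 to 3 for M4. The single calls of M2 and M3, both Hoxa7, were lost without M1 replicate 2 (0 calls), and that of M2 also without M2 replicate 2 (0 calls).

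Quantile normalization gave 10 higher and 2 lower Hox genes in the mean of the M lines: Hoxa3 was lost (-0.99) and Hoxb9 gained (1.05), and the cause was not tested. Over all genes it moved the split to 1419 higher and 1289 lower, against 1083 and 2128 at the deposited scale. The replicate block left every count as it was (12 in the mean of the M lines). The deviations of same-numbered arrays correlated at -0.0686 to 0.061. No sign of pairing by number was thus seen, though a small shared effect would not show in these values. No called result changed its direction under any of these settings; 83 changes that were not called changed sign. For the values of single genes in single lines and for their gap across the M lines, these settings were added after seeing the data; for the counts they were planned.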
